A study of Homo sapiens with 4 samples.

Results

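The metalloprotease genes of the MMP, ADAM and ADAMTS families and the genes of their TIMP inhibitors were followed in MDA-MB-231 cells, a human line established from a triple-negative breast cancer. Members were taken by gene symbol alone: MMP, ADAM or ADAMTS followed by a number, and TIMP1 to TIMP4. This gave 65 genes among 25133 rows with a gene symbol, namely 23 MMP, 20 ADAM, 19 ADAMTS and 3 TIMP genes (TIMP1, TIMP2 and TIMP4). MMP23A and ADAM5 among them are annotated as pseudogenes. TIMP3, MMP20 and ADAM2 are not analysed here. RNA was sequenced in 2 libraries from cells that carried the control hairpin shSCR (genotype WT), called the controls here, and in 2 from cells that carried shJARID2 (genotype JARID2 knockdown). Both hairpins entered the cells by infection in the presence of Polybrene, and both groups grew in the same serum-containing medium with penicillin and streptomycin. Neither the origin of the 2 libraries of a group (separate cultures or 1) nor the number of hairpins or clones is stated, so the spread behind each p-value may be technical: it is that between these libraries only.

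Matrix metalloproteinases (MMPs) are zinc-dependent enzymes that cut collagens and other matrix proteins. Most are secreted, and a smaller group is held in the plasma membrane. ADAMs are membrane proteins, and the active ones shed the outer part of growth factors, receptors and adhesion molecules from the cell surface. ADAMTS enzymes are secreted and act mainly on proteoglycans and procollagens. TIMPs bind the active site of these enzymes and block it. In breast cancer the membrane enzyme MMP14 is known for its part in invasion, and ADAM17 and ADAM10 for releasing EGF receptor ligands and Notch fragments. JARID2 is an accessory subunit of Polycomb repressive complex 2, which methylates histone H3 at lysine 27.

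Values are FPKM, in which fragments are scaled to gene length and library depth. Low FPKM fell on whole multiples of 1 read, which gave depths of about 12800000 to 16200000 reads per library. Levels of different genes compare only roughly, because the length that gave whole reads was that of all annotated exons, not of 1 transcript. JARID2 itself stood at 10.8 FPKM in both controls and at 3.88 and 3.91 in the knockdown libraries. Of 6 markers of a mesenchymal-like breast cancer cell, all exceeded 1 FPKM, but vimentin (VIM) was at only 2.10 to 4.20 FPKM, and 24.4% of its exonic length is shared with other genes. Among 5 genes taken as low in these cells, ESR1, PGR, CDH1 and KRT5 were at or below 0.203 FPKM, and ERBB2 was at 6.58 to 15.7. None of 16 fibroblast, leukocyte and endothelial markers reached a mean of 1 FPKM. A change is given as the difference in mean log2(FPKM + 1), shJARID2 minus shSCR, which is smaller than the true log2 ratio for low genes. Changes were tested with limma over 12455 rows with a mean of at least 1 FPKM, and a gene was called at a Benjamini-Hochberg adjusted p below 0.05. Over 12070 of these rows the change followed the GC content of the transcripts (Spearman's rho -0.67, a description across genes of 4 libraries). A value with this trend removed within each library is therefore given beside each measured one, as GC-corrected. A lower FPKM in bulk RNA does not tell fewer expressing cells from less RNA per cell.

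Of the 65 genes, 18 had a mean of 1 FPKM or more over the 4 libraries. These were TIMP1 and TIMP2, 4 MMPs, 7 ADAMs and 5 ADAMTSs. In shJARID2, 6 were called higher (TIMP2, ADAM10, ADAM17, ADAM22, MMP16 and ADAMTS16) and 7 lower (MMP14, MMP24, TIMP1, ADAM9, ADAM15, ADAM8 and ADAMTS1), and 5 did not pass the test. By FPKM alone, both knockdown libraries lay above both controls for 7 of the 18 and below them for 8, beside 39.8% and 43.1% of all genes. Among all genes tested, 28.0% were called higher and 31.6% lower, against 33.3% and 38.9% of the 18, so the family was called about as often as the transcriptome at large. The median log2 fold change was -0.031 over the 18 and -0.018 over all genes tested. After GC correction 4 of the 18 were called higher and 4 lower, beside 22.7% and 21.4% of all genes. TIMP2 and ADAM10 rose and MMP14, ADAM9 and ADAM15 fell with the same call under all 15 alternative settings tried, and these 5 were the only ones of the 18 of which that held. Without shSCR replicate 2, 2 of the 18 were called higher and 5 lower, where the shares of all genes also dropped, to 17.4% and 19.8%. Without shSCR replicate 1 and without shJARID2 replicate 1, 3 were called higher, beside 20.1% and 22.5% of all genes.

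**Figure D1:**
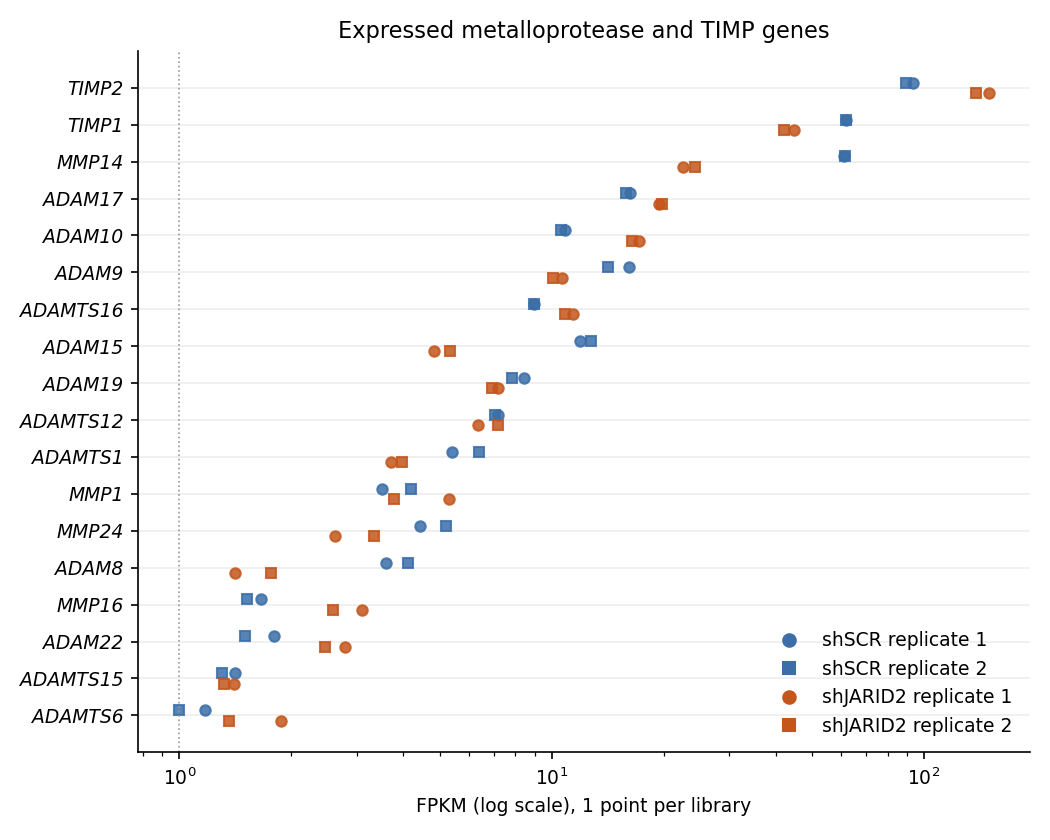
FPKM of the 18 genes with a mean of at least 1 FPKM in each of the 4 libraries (log axis, 1 point per library, dotted line at 1 FPKM). TIMP2, TIMP1 and MMP14 lie above 20 FPKM in every library, and MMP14 and ADAM15 show the widest gaps between shSCR and shJARID2 among genes above 4 FPKM.

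The start regions of 4 expressed and 2 nearly silent members are shown. These are some of the genes called as measured, beside some that these cells hardly transcribe. RefSeq promoter windows (GRCh38.p14, 250 bases before to 50 after the start) matched 37 of the 65 symbols, 11 of them among the 18 expressed genes. No window matched TIMP2 or ADAM9, whose calls held under all settings. Each line gives the 250 bases upstream of the start, 5′ to 3′ on the gene's strand, and capitals mark 3 motifs searched on both strands, none of whose matches overlap. The GC box was searched as GGGCGG. The AP-1 type element was searched as TGANTCA. The TATA type element was searched as TATAAA. MMP14 (at chr14:22836335-22836584 (+ strand)) and ADAM15 (chr1:155051066-155051315 (+ strand)) had the 2 largest falls as measured. ADAM10 (chr15:58749708-58749957 (- strand)) rose, and TIMP1 (chrX:47582186-47582435 (+ strand)) is the inhibitor whose measured fall was lost with GC correction. MMP10 (chr11:102780629-102780878 (- strand)) and MMP7 (chr11:102530748-102530997 (- strand)) were nearly silent.
MMP14: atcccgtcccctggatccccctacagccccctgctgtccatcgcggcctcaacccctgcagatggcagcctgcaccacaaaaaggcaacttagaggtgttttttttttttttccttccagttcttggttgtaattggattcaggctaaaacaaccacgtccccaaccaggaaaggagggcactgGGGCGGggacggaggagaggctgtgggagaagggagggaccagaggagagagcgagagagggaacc
ADAM15: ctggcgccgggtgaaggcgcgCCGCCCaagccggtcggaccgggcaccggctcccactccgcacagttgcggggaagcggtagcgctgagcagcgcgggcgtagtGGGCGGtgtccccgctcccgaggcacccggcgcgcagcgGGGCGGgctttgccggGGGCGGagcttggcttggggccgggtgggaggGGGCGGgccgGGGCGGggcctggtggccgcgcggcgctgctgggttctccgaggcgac
ADAM10: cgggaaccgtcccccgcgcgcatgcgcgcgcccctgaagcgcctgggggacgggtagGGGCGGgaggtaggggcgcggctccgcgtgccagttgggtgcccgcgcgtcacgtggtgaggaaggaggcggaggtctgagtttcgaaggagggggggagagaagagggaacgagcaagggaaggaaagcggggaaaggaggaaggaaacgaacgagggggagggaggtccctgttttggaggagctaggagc
TIMP1: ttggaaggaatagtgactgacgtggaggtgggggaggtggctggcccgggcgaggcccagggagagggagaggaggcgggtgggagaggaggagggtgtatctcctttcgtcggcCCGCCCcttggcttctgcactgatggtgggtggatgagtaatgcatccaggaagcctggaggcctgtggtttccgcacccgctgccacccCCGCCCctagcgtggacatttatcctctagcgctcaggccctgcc
MMP10: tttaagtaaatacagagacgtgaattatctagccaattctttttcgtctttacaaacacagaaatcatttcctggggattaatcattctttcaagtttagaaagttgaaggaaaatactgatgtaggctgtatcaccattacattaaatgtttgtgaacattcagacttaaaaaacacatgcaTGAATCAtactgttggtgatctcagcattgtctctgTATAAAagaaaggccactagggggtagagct
MMP7: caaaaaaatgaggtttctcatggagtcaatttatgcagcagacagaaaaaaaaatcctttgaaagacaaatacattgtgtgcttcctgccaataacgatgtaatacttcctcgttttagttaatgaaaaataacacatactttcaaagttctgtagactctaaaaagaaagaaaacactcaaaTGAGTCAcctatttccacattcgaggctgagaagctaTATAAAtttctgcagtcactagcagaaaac
In the 300-base windows, GGGCGG was found in 9 of 11 expressed members, in 16 of 27 windows of members below 1 FPKM and in 45.0% of all promoters. ADAM15 held 6 such matches, TIMP1 2, and MMP14 and ADAM10 1 each, so the letters occurred both in genes that fell and in one that rose. TATAAA was found in none of the 11 expressed members, in 7 of the 27 other windows and in 11.5% of all promoters. TGANTCA was found in 1 of the 11 expressed members, in 2 of the 27 other windows and in 7.71% of all promoters. The 2 were MMP10 and MMP7, which each held it starting at position -67 from the start, and TATAAA at -31 and -30. The expressed member was ADAMTS12, with the match at -84. The GC content of the window was 55.0% for MMP14, 79.3% for ADAM15 and 68.0% for ADAM10, against 36.3% for MMP10 and 35.7% for MMP7. These 2 do not stand for the silent members. The median was 68.0% over the 11 expressed members and 65.0% (33.3% to 80.3%) over the 27 other windows. These matches describe letters and do not show that a factor binds there.

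The membrane-type enzyme MMP14 had the highest FPKM in shSCR of the protease genes in the 4 families. It also had the largest measured fall, while after GC correction ADAM9 fell more (-0.91). MMP14 (gene ID 4323, chromosome 14, 22836557 to 22849027, + strand) activates secreted pro-MMP2 and cuts fibrillar collagen at the cell surface. It stood at 61.1 and 61.4 FPKM in the controls and at 22.6 and 24.3 with shJARID2, or 61.3 ± 0.236 against 23.5 ± 1.17 (mean ± SD, n = 2 libraries per group). The groups lay far apart beside the spread within them, and the values rested on 4227, 4439, 1308 and 1388 reads. MMP14 fell by 1.35 on the log2 scale (SE 0.051, adjusted p = 0.0014, limma), and its GC-corrected value was -0.78 (adjusted p = 0.0017). MMP14 made up 80.1% and 79.4% of all MMP FPKM in shSCR and 61.7% and 64.1% in shJARID2. The summed FPKM of the 23 MMPs went from 76.2 and 77.4 to 36.7 and 37.9.

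MMP16, another membrane-type enzyme with MMP14-like activity, moved the other way at a low level. It was at 1.66 and 1.52 FPKM in the controls and at 3.10 and 2.59 with shJARID2, with both knockdown libraries above both controls. MMP16 rose by 0.57 (SE 0.12, adjusted p = 0.015), and the call was lost after GC correction (0.34, adjusted p = 0.058), though not when that correction used a pseudocount of 0.1 (0.54, adjusted p = 0.042). Leaving out either control, or the first knockdown library, also ended the call (adjusted p from 0.056 to 0.082). The level of MMP16 relative to MMP14 within a library was 0.0271 and 0.0248 in shSCR and 0.137 and 0.106 in shJARID2. MMP24, a membrane-type enzyme best known from neurons, was at 4.43 and 5.21 FPKM in the controls and at 2.62 and 3.34 with shJARID2. Its fall (-0.55, SE 0.13, adjusted p = 0.024) turned to 0.084 after GC correction and did not pass. MMP24 was also not called with no filter on low values (adjusted p = 0.068) or when either control or the first knockdown library was left out (adjusted p from 0.056 to 0.12). MMP24 shares 21.8% of its exonic length with other genes, MMP24OS on the opposite strand among them, and whether the counting used strand is not given, so this value is uncertain.

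MMP1, the interstitial collagenase, was the only secreted MMP with a mean of 1 FPKM or more. It was at 3.50 and 4.20 FPKM in the controls and at 5.29 and 3.77 with shJARID2, so that the groups overlapped, on 95 to 135 reads per library. The difference did not pass (0.18, SE 0.17, adjusted p = 0.41), nor did the GC-corrected value (-0.079, adjusted p = 0.72). MMP1 lies in a cluster of 8 analysed MMP genes on chromosome 11 between 102520508 and 102955734, all on the - strand. Its neighbours MMP3 (stromelysin 1) and MMP10 (stromelysin 2), MMP7 (matrilysin), MMP8, MMP12, MMP13 and MMP27 were at or below 0.221 FPKM in every library. The gelatinases were also near 0. MMP2, which MMP14 activates, was at 0.0131 and 0.0376 FPKM in the controls and at 0.0157 and 0 with shJARID2. For that 0, an upper limit taken as 3 reads corresponds to 0.0475 FPKM. MMP9 was at 0.0552, 0, 0.0331 and 0.301 FPKM in the same order, the last value from 9 reads, and it shares 18.4% of its exonic length with another gene.

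The inhibitors moved in opposite directions as measured. TIMP2 (chromosome 17, 78852977 to 78925387, - strand), which inhibits MMPs and also bridges MMP14 to pro-MMP2, had the highest level of all 65 genes. It was at 93.5 and 89.5 FPKM in the controls and at 150.1 and 138 with shJARID2, both knockdown libraries well above the controls. TIMP2 rose by 0.65 (SE 0.059, adjusted p = 0.0020) and 0.75 after GC correction (adjusted p = 0.0024). TIMP1 (chromosome X, 47582313 to 47586789, + strand), a broad MMP inhibitor that acts poorly on membrane-type MMPs, was at 62.0 and 61.7 FPKM in the controls and at 44.8 and 42.2 with shJARID2. Its fall of 0.50 on the log2 scale (SE 0.048, adjusted p = 0.0022) was at 0.0059 after GC correction and no longer passed (adjusted p = 0.95). TIMP4 was between 0 and 0.284 FPKM, with overlapping groups.

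Ratios within a library do not depend on how libraries are scaled to each other, although they keep any effect of GC content. These pairs were chosen after their values were seen and are given without a test. MMP14 relative to TIMP2 was 0.654 and 0.687 in shSCR and 0.151 and 0.176 in shJARID2. MMP14 relative to TIMP1 was 0.986 and 0.995 in shSCR and 0.505 and 0.576 in shJARID2. By FPKM the protease was thus close to TIMP1 in the controls, and below both inhibitors in the knockdown libraries. TIMP2 relative to TIMP1 went from 1.51 and 1.45 to 3.35 and 3.27. ADAM15 relative to ADAM9 went from 0.733 and 0.903 to 0.450 and 0.527, but with GC correction ADAM9 fell more than ADAM15 (-0.91 and -0.41), which is the opposite direction.

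**Figure D2:**
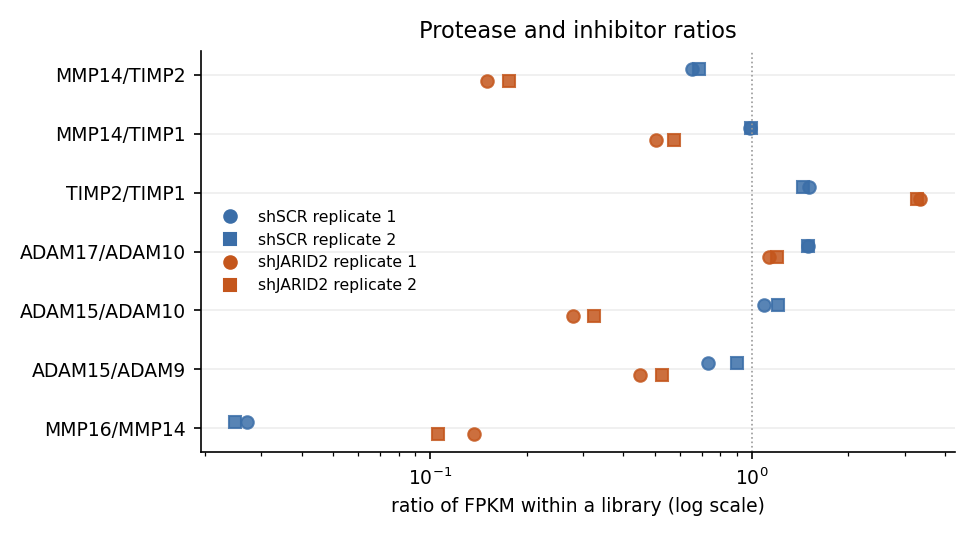
Ratio of the FPKM of 2 genes within each library (log axis, 1 point per library). MMP14/TIMP2 lies at 0.654 and 0.687 in shSCR and at 0.151 and 0.176 in shJARID2, and in none of the 7 pairs do the groups overlap as measured. The direction of ADAM15/ADAM9 turns with the GC-corrected changes.

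The ADAM sheddases split as well. ADAM17 and ADAM10, the main sheddases of the cell surface, were both higher as measured. ADAM10 (chromosome 15, 58588807 to 58749978, - strand) cuts Notch receptors and cadherins. It was at 10.9 and 10.6 FPKM in the controls and at 17.2 and 16.5 with shJARID2, with no overlap. ADAM10 rose by 0.60 (SE 0.052, adjusted p = 0.0019) and 0.30 after GC correction (adjusted p = 0.0077). ADAM17, also called TACE, releases TNF and most EGF receptor ligands. It was at 16.3 and 15.9 FPKM in the controls and at 19.4 and 19.8 with shJARID2. The rise of 0.27 (SE 0.047, adjusted p = 0.0096) was at -0.022 after GC correction and did not pass, nor did it pass without shSCR replicate 2. ADAM17 shares 13.6% of its exonic length with other genes, and with the annotated length its FPKM did not give whole reads in every library.

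ADAM9 and ADAM15 fell under both measures. ADAM9 (chromosome 8, 38996869 to 39105144, + strand), a widely expressed sheddase, was at 16.2 and 14.2 FPKM in the controls and at 10.7 and 10.1 with shJARID2. Its fall was 0.51 on the log2 scale (SE 0.082, adjusted p = 0.0077). ADAM9 had the lowest transcript GC content of the 18 (38.7%), and its GC-corrected value was -0.91 (adjusted p = 0.0021). ADAM15 (chromosome 1, 155050566 to 155062775, + strand), which carries an integrin-binding RGD motif, was at 11.9 and 12.8 FPKM in the controls and at 4.82 and 5.33 with shJARID2. ADAM15 fell by 1.14 on the log2 scale (SE 0.077, adjusted p = 0.0014), and -0.41 after GC correction (adjusted p = 0.0058). ADAM15 relative to ADAM10 went from 1.09 and 1.21 to 0.279 and 0.323. The gene of the pair with the higher FPKM was ADAM15 in the controls and ADAM10 in the knockdown libraries.

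The remaining expressed ADAMs were lower in level. ADAM8, known from leukocytes and invasive breast cancer, was at 3.59 and 4.11 FPKM in the controls and at 1.41 and 1.76 with shJARID2, and its measured fall (-0.91, adjusted p = 0.0046) became -0.069 with the GC trend removed and was not called. With a transcript GC content of 65.5%, ADAM8 was the most GC-rich of the 18. ADAM19, which sheds neuregulins, was at 8.44 and 7.84 FPKM in the controls and at 7.19 and 6.91 with shJARID2. The difference of -0.18 did not pass (adjusted p = 0.074) and had the opposite sign after GC correction (0.23, adjusted p = 0.075). With limma-voom on the recovered reads ADAM19 was called lower (-0.21, adjusted p = 0.030), as were 35.2% of all genes. ADAM22, a catalytically inactive member that serves as a receptor for LGI proteins, was at 1.79 and 1.50 FPKM in the controls and at 2.78 and 2.46 with shJARID2. Its rise (0.45, adjusted p = 0.029) was lost after GC correction (0.17) and when any 1 of the 4 libraries was left out. The summed FPKM of the 20 ADAMs was 72.3 and 70.4 in shSCR and 66.0 and 65.5 in shJARID2. Within that sum ADAM10 went from 15.1% and 15.1% to 26.1% and 25.2%, and ADAM15 from 16.5% and 18.2% to 7.30% and 8.13%.

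Among the secreted ADAMTS enzymes 1 of 5 expressed genes rose and 1 fell, beside 28.0% and 31.6% of all genes, and 2 rose and 1 fell after GC correction. ADAMTS16 had the highest level of the family. It was at 8.98 and 8.99 FPKM in the controls and at 11.4 and 10.9 with shJARID2, and its rise of 0.28 (SE 0.056, adjusted p = 0.014) became 0.55 after GC correction (adjusted p = 0.0042). ADAMTS16 was not called when either control or the first knockdown library was left out (adjusted p from 0.053 to 0.079). ADAMTS1, which cleaves aggrecan and versican, was at 5.39 and 6.40 FPKM in the controls and at 3.70 and 3.97 with shJARID2. The fall was 0.51 on the log2 scale (SE 0.10, adjusted p = 0.014) and nearly the same after GC correction (-0.49, adjusted p = 0.019), but it was not called without shSCR replicate 2 (-0.40, adjusted p = 0.074) or without shJARID2 replicate 1 (-0.47, adjusted p = 0.054).

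The other three ADAMTS genes did not pass the test. ADAMTS12 was at 7.19 and 7.06 FPKM in the controls and at 6.34 and 7.20 with shJARID2, with overlapping groups (-0.067, adjusted p = 0.50). Its GC-corrected value was -0.055 (adjusted p = 0.57). ADAMTS15, a versican-cleaving enzyme, was at 1.41, 1.30, 1.40 and 1.32 FPKM in the same order, a log2 fold change of 0.0055 (adjusted p = 0.97). Its transcripts have a GC content of 59.8%, and after GC correction it was called higher (0.60, adjusted p = 0.020). ADAMTS6 was at 1.17 and 0.995 FPKM in the controls and at 1.87 and 1.36 with shJARID2. The difference did not pass on log2 values (0.32, adjusted p = 0.14) and was near 0 after GC correction (0.049, adjusted p = 0.80). With limma-voom on the recovered reads, which have no GC correction, ADAMTS6 was called higher (0.56, adjusted p = 0.0080). That test called 31.7% of all genes higher. The summed FPKM of the 19 ADAMTSs hardly differed between groups, at 25.8 and 26.6 in shSCR and 26.3 and 26.5 in shJARID2.

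**Figure D3:**
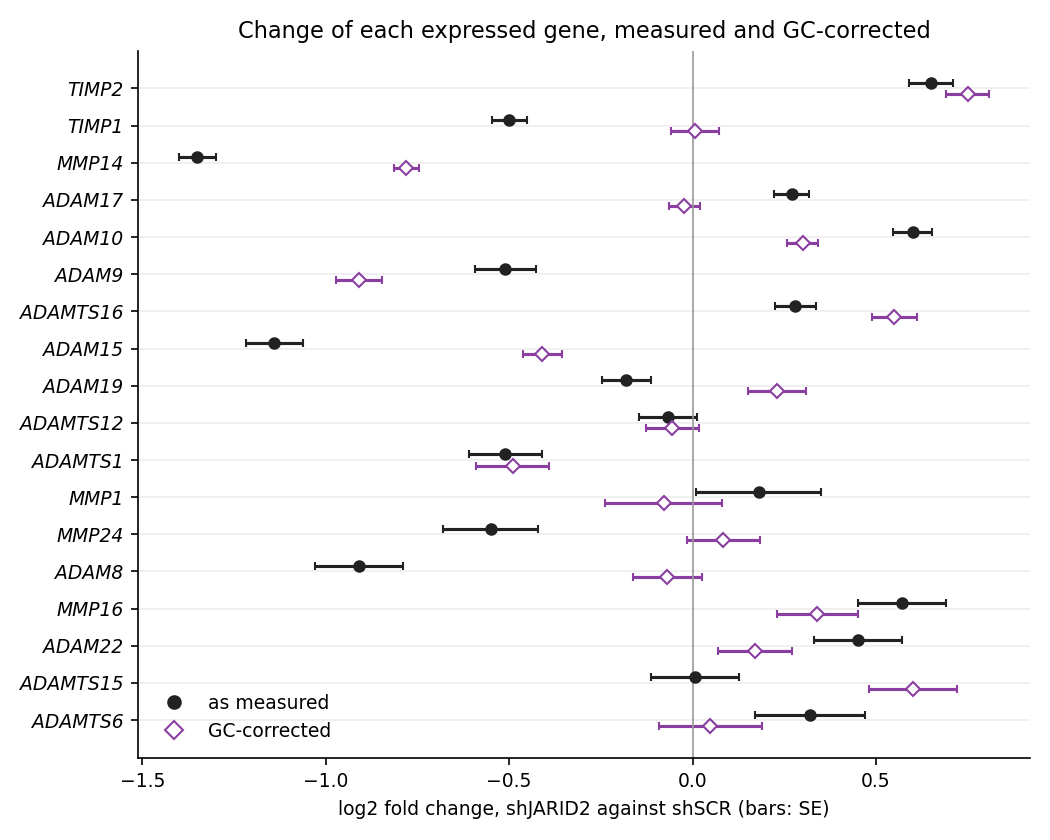
Log2 fold change of shJARID2 against shSCR for the 18 expressed genes, ordered by mean FPKM, as measured (filled points) and after GC correction (open diamonds), with bars of 1 SE from limma. MMP14, ADAM9 and ADAM15 stay below 0 and TIMP2 and ADAM10 above 0 under both measures, while TIMP1, ADAM17 and MMP24 move to near 0 with the correction.

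Transcript GC content differed between the genes called in the 2 directions. The 6 higher genes had a median GC content of 43.4% (41.6% to 53.9%) and the 7 lower genes one of 59.3% (38.7% to 65.5%). Over the 18 genes Spearman's rho between GC content and change was -0.61, and 0.018 after GC correction, as a description of points that share the same 4 libraries. With the trend removed, ADAM9 had the lowest value of the 18 (-0.91) and TIMP2 the highest (0.75), at GC contents of 38.7% and 51.0%. How far GC content itself accounts for the change of any 1 gene was not tested.

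**Figure D4:**
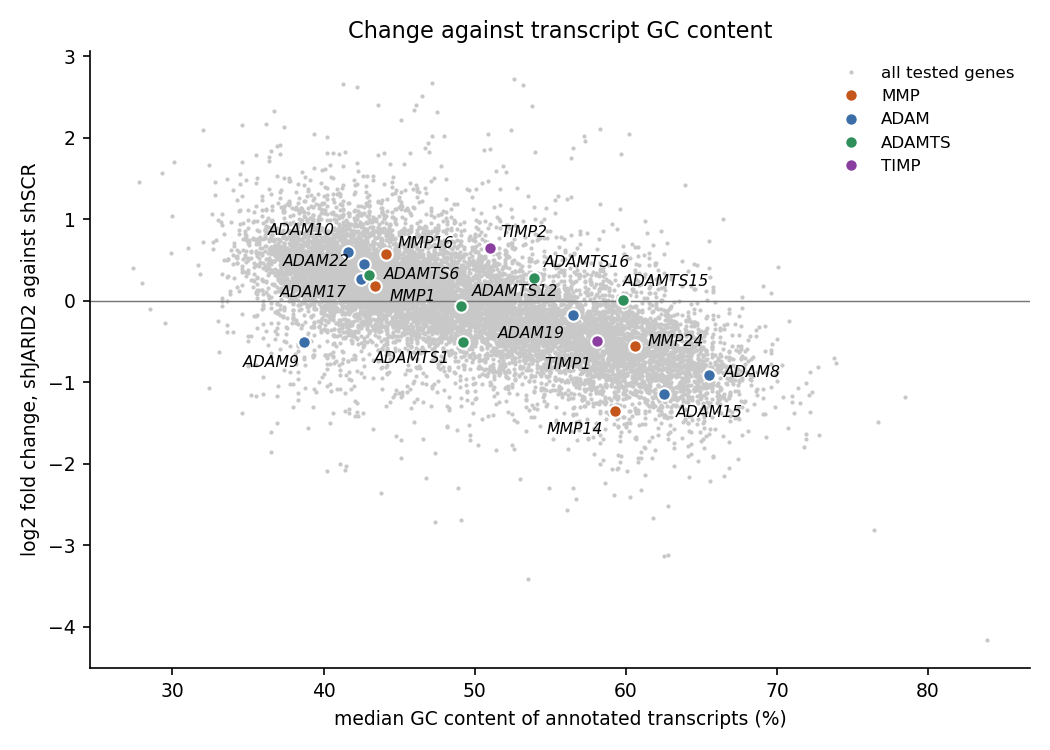
Log2 fold change against the median GC content of annotated transcripts for all tested genes with a value (grey) and for the 18 expressed genes (coloured by family). The grey cloud slopes downward (rho -0.67). ADAM10, ADAM17 and ADAM22 lie above 0 at GC contents of 41.6% to 42.7%, and ADAM9 lies below 0 at 38.7%.

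The other 47 genes had a mean below 1 FPKM and were not part of the main test. The lowest mean above the threshold was that of ADAMTS6, at 1.35 FPKM, and the highest below it that of ADAM11, at 0.971. ADAM11, a catalytically inactive member, was at 1.35 and 1.24 FPKM in the controls and at 0.567 and 0.720 with shJARID2. MMP17, a GPI-anchored MMP, was at 1.32 and 1.36 FPKM in the controls and at 0.424 and 0.566 with shJARID2. MMP11 (stromelysin 3) was at 1.22 and 1.09 FPKM in the controls and at 0.776 and 0.558 with shJARID2. In all 3 the groups were separate, with shJARID2 lower. Of all rows above 0 and below 1 FPKM, 18.0% were separate in that direction and 18.7% in the other. At 1 FPKM or more, a threshold close to these 3 genes, the shares were 43.1% and 39.8%. Of the 6 genes with a mean between 0.5 and 1 FPKM, 3 were separate and lower and 0 higher. The counts were 8 and 2 of the 13 genes between 0.1 and 0.5 FPKM, and 4 and 6 of the 28 below 0.1. MMP21 (1.01 and 0.837 against 0.483 and 0.936 FPKM), MMP15 (0.759 and 0.419 against 0.699 and 0.495) and ADAM32 (0.610 and 0.554 against 0.584 and 0.599) overlapped.

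Between 0.1 and 0.5 FPKM on average lay 13 genes: ADAM12, ADAM20, ADAM21, ADAM23, ADAMTS3, ADAMTS7, ADAMTS9, ADAMTS13, ADAMTS17, ADAMTS19, MMP3, MMP19 and TIMP4. Below 0.1 FPKM were 28 genes. These were MMP2, MMP7, MMP8, MMP9, MMP10, MMP12, MMP13, MMP23A, MMP23B, MMP25, MMP26, MMP27 and MMP28, the ADAMs ADAM5, ADAM7, ADAM18, ADAM28, ADAM29, ADAM30 and ADAM33, and ADAMTS2, ADAMTS4, ADAMTS5, ADAMTS8, ADAMTS10, ADAMTS14, ADAMTS18 and ADAMTS20. No gene was at 0 in all 4 libraries. In a fit with no filter on low values, 4 of the 47 were called lower (MMP17, ADAMTS7, ADAMTS13 and MMP23B) and none higher, where 3.64% of rows with a mean above 0 and below 1 FPKM were called lower and 1.33% higher. ADAMTS7, an enzyme known for cleaving cartilage oligomeric matrix protein, fell from 0.392 and 0.344 to 0.0899 and 0.141 FPKM, on 47 and 43 against 9 and 14 reads. ADAMTS13, which cuts von Willebrand factor, had 16 and 19 reads in shSCR and 3 and 4 in shJARID2. MMP23B had 4 and 5 reads in shSCR and 0 in both shJARID2 libraries. For a 0 in 1 library, an upper limit taken as 3 reads corresponds to 0.102 and 0.103 FPKM there. The controls were close to that limit for a single library, at 0.114 and 0.136 FPKM. The pseudogene MMP23A is a near-identical copy of MMP23B, so reads may have been split between them. All 4 have GC-rich transcripts (63.8% to 68.7%), and no GC-corrected value was computed below 1 FPKM. Among the 13 low genes ADAM12, linked to breast cancer progression, was higher in both shJARID2 libraries (0.407 and 0.356 against 0.118 and 0.182 FPKM) without passing that fit (adjusted p = 0.056).

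Genes that control metalloproteases and the related astacin proteases BMP1, TLL1 and TLL2, together called regulators here, were taken as a list of 37. Of these, 29 were tested. In shJARID2, 3 were called higher (10.3%) and 20 lower (69.0%), against 28.0% and 31.6% of all genes, and the median log2 fold change was -0.58. After GC correction 6 (20.7%) were higher and 11 (37.9%) lower, against 22.7% and 21.4% of all genes, with a median of -0.11. Of these 6, ETV5 (0.20) and JUN (0.41) were not called as measured. The tested genes had a median transcript GC content of 56.8%, against 48.2% over all genes. ETV4, an ETS transcription factor of protease promoters, went from 11.6 ± 0.296 to 2.83 ± 0.0685 FPKM (-1.72, GC-corrected -1.14). BSG (CD147, an inducer of MMPs) went from 82.4 ± 8.37 to 24.3 ± 1.76 FPKM (-1.72, GC-corrected -1.04). The tetraspanin CD9, which binds ADAM10 and ADAM17, went from 19.0 ± 1.87 to 5.63 ± 0.362 FPKM and fell by 1.59 under both measures. Lower too were the urokinase receptor gene PLAUR (-1.16, GC-corrected -0.78), the tetraspanin CD63 (-0.92 and -0.64) and LRP1, an endocytic receptor that clears proteases (-0.91 and -0.31). FURIN, the convertase that removes the propeptide of MMP14 and of ADAMs, went from 10.1 ± 0.493 to 4.75 ± 0.270 FPKM (-0.95, GC-corrected -0.25). An iRhom gene, RHBDF1, whose protein carries ADAM17 to the surface, lost its call with the correction (-0.89 and -0.13).

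The direction of 7 called regulators turned after GC correction. FOSL1 and JUND, subunits of AP-1, were lower as measured (-0.20 and -0.53) and called higher after it (0.41 and 0.55). JUNB (-0.55 and 0.26), FOS (-0.59 and 0.022), FRMD8 (-0.72 and 0.14), the second iRhom gene RHBDF2 (-0.66 and 0.026) and the astacin protease BMP1 (-0.45 and 0.20) were lower as measured and were not called after correction. FOSL1 was at 492 ± 0.122 FPKM in shSCR and 429 ± 11.8 in shJARID2. Not all such factors turned. The AP-1 subunit FOSL2 (-0.58, GC-corrected -0.17) and ETS1 (-0.24 and -0.49), named after their values were seen, were called lower under both measures. The call of FOSL2 was lost when the correction used a pseudocount of 0.1, and that of ETS1 without shSCR replicate 1. Named after their values were seen, the 3 higher regulators were PLAU, the urokinase gene (0.82, GC-corrected 1.09), the transcription factor RUNX2 (0.50 and 0.35) and the hyaluronan receptor CD44 (0.19 and 0.11), whose call was lost with the correction. PLAU shares 31.1% of its exonic length with other genes. Of the ADAM10-binding TspanC8 tetraspanins tested, TSPAN14 (-0.79, GC-corrected -0.44) and TSPAN17 (-0.80 and -0.27) fell under both measures. TSPAN15 fell as measured only (-0.61 and -0.15), and TSPAN5 did not pass under either measure (0.069 and -0.11). These tetraspanins were also picked out after their values were seen. RECK, a membrane-anchored inhibitor of MMP14, was at 4.35 ± 0.340 and 5.39 ± 0.229 FPKM and did not pass (0.26, adjusted p = 0.054). Its GC-corrected value was 0.043 (adjusted p = 0.66). RECK was called with median-ratio scaling, quantile normalization and limma-voom, none of which correct for GC content. Leaving out shSCR replicate 2 ended the measured calls of FOSL1, FOS, BMP1, JUNB, RHBDF2, TSPAN15 and CD44. Those of FOSL1, FOS, BMP1 and CD44 were also lost without shSCR replicate 1, that of FOS without shJARID2 replicate 1, and those of FOSL1 and BMP1 without shJARID2 replicate 2.

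Of 34 genes whose proteins are shed by ADAMs or MMPs, 24 were tested. In shJARID2, 4 were called higher (16.7%) and 7 lower (29.2%), beside 28.0% and 31.6% of all genes. After GC correction 6 were higher and 5 lower, beside 22.7% and 21.4% of all genes. Several of these were not called as measured: MICA (0.53) and IL6R (0.50), higher, and MET (-0.19), TGFBR1 (-0.25) and CD46 (-0.41), lower. The corrected call of IL6R was lost with a pseudocount of 0.1 (0.66, adjusted p = 0.12). The median change of the list was 0.0045. TGFA, an EGF receptor ligand released by ADAM17, went from 13.7 ± 0.431 to 27.3 ± 0.632 FPKM (0.94, GC-corrected 1.50). MICB, a ligand of the immune receptor NKG2D, rose by 0.88 (GC-corrected 0.94) and the receptor phosphatase gene PTPRK by 0.59 (GC-corrected 0.39). Lower were the receptor tyrosine kinase gene EPHA2 (-1.29, GC-corrected -0.57) and NOTCH1, an ADAM10 substrate, which went from 26.0 ± 1.20 to 13.0 ± 1.03 FPKM (-0.95, GC-corrected -0.16). The GC-corrected call of NOTCH1 was lost with a pseudocount of 0.1 (-0.019, adjusted p = 0.73) and with the replicate number as a term. The falls of TNFRSF1B (-0.94 and -0.31), SDC1 (-0.55 and 0.033), NOTCH3 (-0.45 and 0.16) and EGFR (-0.20 and 0.080) and the rise of ALCAM (0.37 and -0.037) were not called after correction. When the correction used a pseudocount of 0.1, EGFR was called higher (0.15, adjusted p = 0.046). TNFRSF1A turned from lower (-0.22) to higher (0.20). When either control was left out, the measured calls of EGFR, NOTCH3 and TNFRSF1A were lost, as were those of NOTCH3 and TNFRSF1A without shJARID2 replicate 1 and that of TNFRSF1A without shJARID2 replicate 2.

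**Figure D5:**
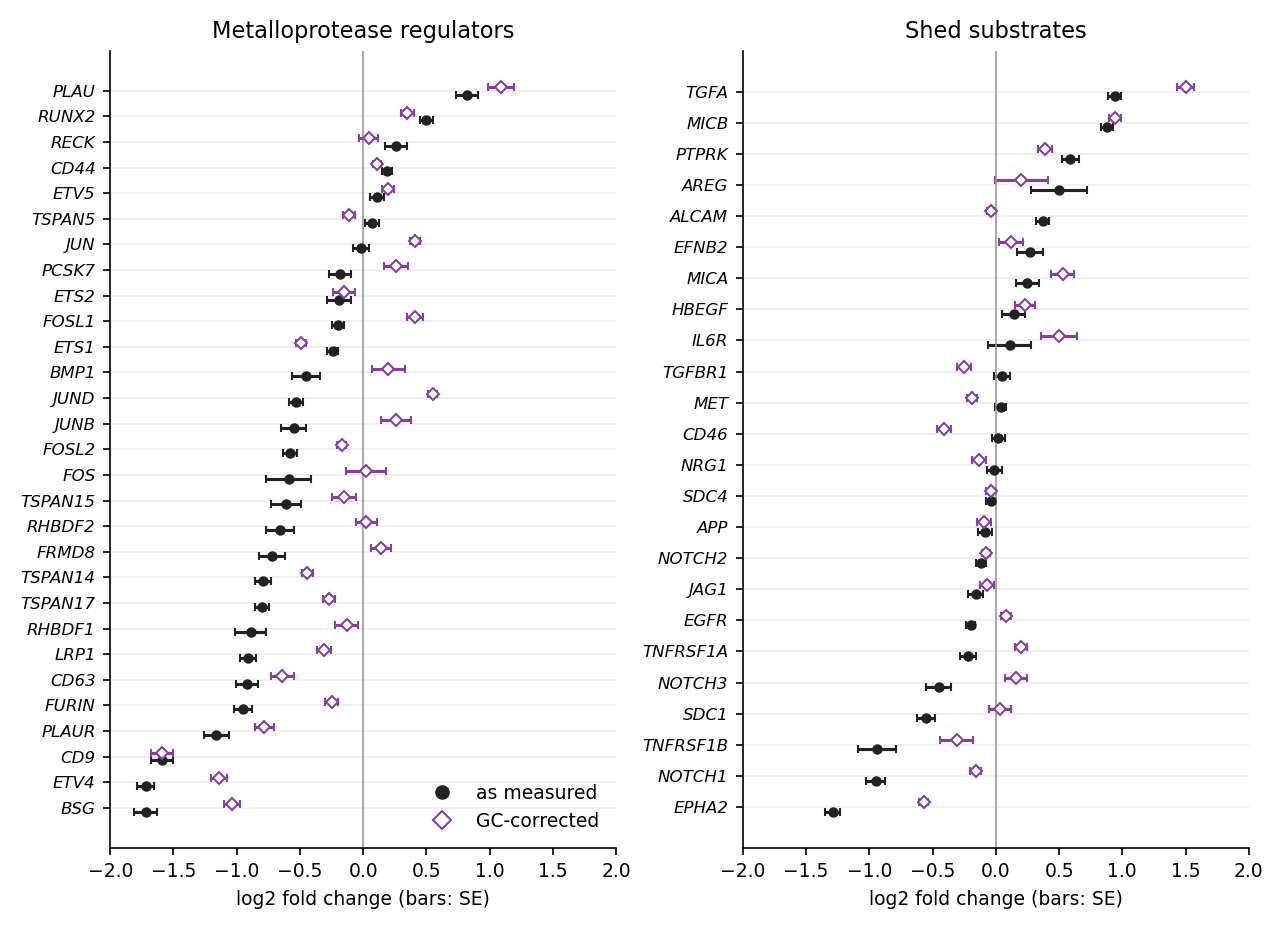
Log2 fold changes of 29 tested regulators of metalloproteases and 24 tested shed substrates, as measured (filled points) and GC-corrected (open diamonds), with bars of 1 SE from limma. ETV4, BSG and CD9 are the lowest regulators under both measures, and TGFA and MICB the highest substrates.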

How the data were processed

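Each of the 4 libraries has a file of FPKM values as deposited by the authors. It lists 85553 rows, and 25133 of them carry a gene symbol. Rows without a symbol, which held 21.1% to 24.5% of all FPKM, were left out. The submitters' processing notes name Trimmomatic (read trimming), HISAT2 (alignment), SAMtools and featureCounts (counting). Not given in the sources used here are their versions, the build and annotation, the strand setting and the treatment of reads that match several places or overlapping genes. If reads in shared exons were left out of the counts, the FPKM of genes with such exons (TIMP2, ADAM17 and MMP24 among them) would be too low.

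Rows were matched by symbol to GENCODE release 29 (GRCh38; 24272 rows), which gave coordinates, exon lengths, GC content and exon overlap. With these lengths 95.9% to 96.3% of values up to 20 reads lay within 0.05 of a whole read, which gave the depth. For 63 of the 65 genes every library gave whole reads (not ADAM17 and ADAM5). Intervals from reads would cover counting error only and are not given.

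Rows with a mean of at least 1 FPKM (12455) went, as log2(FPKM + 1), into limma (version 3.58.1, R 4.3.3; trend in the prior variance, group as the only term, 2 residual and 2.36 prior degrees of freedom), two-sided, with Benjamini-Hochberg adjustment over all rows. GC correction removed, in each library, a loess smooth (span 0.3, degree 2) of deviations on transcript GC content for 12070 rows. The fits were tried on simulated reads with few changed genes and no GC trend. That trial does not show how they perform where many genes change or where the change follows GC content. Replicates of a group differed by more than sampling noise (chi-square per degree of freedom 3.13 and 3.60). All genes of the 65 are named, those above 1 FPKM with values. Of the 2 further lists, up to 8 called genes with the largest change and any called gene that turned with GC correction are named. Genes of these lists that were called after GC correction but not as measured were named after their values were seen. The members, lists and tests were chosen with earlier results of these data known. Protein sequences are not used here.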

Additional observations from a re-analysis of the deposited data

How the results depend on the processing

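Of 15 alternatives, 14 changed the pseudocount, filter, scaling, prior variance, test, pairing, GC content or library set, and 1, GC correction with a pseudocount of 0.1, was chosen after seeing the data. Of 270 values of the 18 expressed genes under them, 220 kept direction and side of the threshold. With the direction kept, 26 lost the call and 5 gained one. The other 19 changed sign, and among these the values of TIMP1, ADAM17 and MMP24 also lost the call. With GC correction 2586 genes were lower in place of 3941, 4 expressed members in place of 7, and 11 regulators in place of 20, and 6 regulators were higher in place of 3. GC correction with a pseudocount of 0.1 gave 2409 genes, 4 members, 10 regulators and 4 substrates (in place of 7) lower, and 6 regulators higher. GC correction with the replicate block, that is the replicate number as a term, gave 2336 genes, 4 members, 11 regulators and 4 substrates lower and 6 regulators higher. Limma-voom on recovered reads gave 7 substrates higher in place of 4. The replicate block alone gave 3380 genes higher and 3831 lower, and 6 and 7 of the members, and it changed the call of no member. Same-numbered libraries did not clearly deviate together (correlation 0.0291), and the labels do not say that the number pairs them. The other scalings moved the median of all genes by at most 0.0587.

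Changes of sign came with GC correction, with the replicate block added, and with the pseudocount of 0.1, in that order, in TIMP1 (0.0059, 0.0059 and 0.10), ADAM17 (-0.022, -0.022 and -0.054), ADAM19 (0.23, 0.23 and 0.30), MMP1 (-0.079, -0.079 and -0.082) and MMP24 (0.084, 0.084 and 0.10). When each library was left out in turn, MMP1 ranged from -0.022 to 0.38, ADAMTS12 from -0.15 to 0.012 and ADAMTS15 from -0.03 to 0.041. Leave-one-out counts ranged from 2168 to 3068 genes higher and 2462 to 3763 lower, from 2 to 5 members higher and 5 to 7 lower, and from 4 to 6 substrates lower. Leaving out shSCR replicate 2 gave the lowest of each, shared for members lower with shJARID2 replicate 1 and for substrates lower with shSCR replicate 1. Where a library was left out, the lone library of its group was assumed to vary like the others. The cause was not tested beyond these settings.

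With 2 libraries per group a difference must be large beside the spread to pass. Below 1 FPKM most genes rested on fewer than 100 reads per library, so differences there were often not detectable at this depth.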

Other observations

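The ADAMTS-like genes, which encode secreted relatives of the ADAMTS enzymes without the protease domain, were outside the 65 genes and were looked at after their values were seen. ADAMTSL4, a protein that binds fibrillin, went from 6.16 ± 0.109 to 2.06 ± 0.0763 FPKM (mean ± SD, n = 2 libraries per group), a log2 fold change of -1.23 (adjusted p = 0.0014, limma) and -0.50 after GC correction (adjusted p = 0.0076). ADAMTSL1 was at 9.68 ± 0.183 in shSCR and 8.10 ± 0.266 in shJARID2, and its fall (-0.23, adjusted p = 0.027) was at -0.036 after GC correction and did not pass. ADAMTSL5 was at 9.83 ± 0.475 and 9.17 ± 0.316 FPKM, which did not pass as measured (-0.09, adjusted p = 0.28) and was called higher after GC correction (0.86, adjusted p = 0.0028). Its transcripts have a GC content of 67.7%. The levels of ADAMTSL1 and ADAMTSL5 in shSCR were above that of ADAMTS16, the highest of the ADAMTS genes, at 8.98 ± 0.00544 FPKM. MMP24OS, which overlaps MMP24, was at 1.30 ± 0.129 and 1.50 ± 0.0220 FPKM and did not pass (0.12, adjusted p = 0.42). Its GC-corrected value did not pass either (0.28, adjusted p = 0.11).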
